A study of Mus musculus with 11 samples.

Results

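The Gadd45 family (Gadd45a, Gadd45b and Gadd45g) was followed in mouse liver on 11 one-colour Agilent arrays. The 3 genes were found through the RefSeq accessions of the array's probes, among 22907 genes so named, and each had 1 probe, 3 of 56605 probes in all. Gadd45g was chosen by its higher level with the Notch vectors, so its values in all comparisons are given as a description with no test. Gadd45a and Gadd45b were included as the remaining genes of the family. Male C57Bl6/J mice received AAV8 vectors intraperitoneally at 8 weeks of age, and the liver was taken at day 5. The GFP group received AAV8-GFP alone at 6e+11 viral genomes per mouse (3 arrays). The NICD1 group received AAV8-NICD1 at 3e+11 with AAV8-GFP at 3e+11 (3 arrays), and the NICD2 group received AAV8-NICD2 in the same way (3 arrays). The NICD1&2 group received both NICD vectors at 3e+11 each (2 arrays) and was the only group given no GFP vector. NICD1 is the part of the Notch1 receptor that is released into the cell and acts in the nucleus, and NICD2 is that of Notch2. Expression was driven by the CMV promoter, which is not restricted to hepatocytes, and whole liver RNA was measured, so fewer cells of a type and less RNA per cell cannot be told apart.

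Gadd45 proteins are small nuclear proteins without an enzymatic activity of their own. They bind the kinase Map3k4, which signals to p38 and JNK, and they also bind Cdk1, Pcna and the cell cycle inhibitor Cdkn1a. Gadd45a was found as a gene induced by growth arrest and DNA damage and is a classical target of p53. Gadd45b is known for its induction by NF-κB and TGF-β and by partial hepatectomy. Gadd45g is induced by cytokines and is known as a gene often silenced in hepatocellular carcinoma. Notch intracellular domains act on DNA through their partner RBPJ.

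To show the DNA just before each gene, the 250 bases upstream of the transcription start were taken from RefSeq (GRCm38.p6), where all 3 genes matched. They lie at chr6:67037408-67037657 on the minus strand for Gadd45a, chr10:80929841-80930090 on the plus strand for Gadd45b and chr13:51846425-51846674 on the plus strand for Gadd45g. Capitals mark every match, on either strand, to the octamer ATTTGCAT, CCAAT, the E-box CACGTG, the N-box CACNAG, the TATA box TATAAA and the GC box GGGCGG.
Gadd45a: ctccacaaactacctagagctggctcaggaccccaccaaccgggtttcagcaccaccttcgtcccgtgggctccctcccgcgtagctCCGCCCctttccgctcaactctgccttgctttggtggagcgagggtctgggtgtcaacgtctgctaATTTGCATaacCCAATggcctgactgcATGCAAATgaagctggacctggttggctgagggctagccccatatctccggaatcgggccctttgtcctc
Gadd45b: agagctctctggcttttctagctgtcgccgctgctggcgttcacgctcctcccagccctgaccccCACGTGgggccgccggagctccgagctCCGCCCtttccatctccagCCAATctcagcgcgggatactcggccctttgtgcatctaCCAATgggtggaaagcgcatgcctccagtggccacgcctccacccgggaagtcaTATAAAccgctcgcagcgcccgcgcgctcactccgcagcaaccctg
Gadd45g: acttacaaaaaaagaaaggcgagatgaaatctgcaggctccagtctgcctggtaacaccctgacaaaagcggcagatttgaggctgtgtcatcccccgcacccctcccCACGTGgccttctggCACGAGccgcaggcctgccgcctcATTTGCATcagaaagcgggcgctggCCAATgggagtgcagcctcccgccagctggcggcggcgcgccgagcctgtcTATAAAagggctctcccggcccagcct

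The RBPJ core TGGGAA was in none of these 3 windows on either strand, whereas it was in 21.6% of the 32817 mouse promoter windows of the same length. In the 50 bases from the start onwards it was present 1 time in Gadd45g, at bases 36 to 41 counted from the start, and in neither of the other genes, and 4.59% of all windows held it in that stretch. The octamer, present in 1.6% of windows, occurred 2 times in Gadd45a, once on each strand, 1 time in Gadd45g and 0 times in Gadd45b. Gadd45a had no TATAAA, which 12.4% of windows held, whereas Gadd45b had it 46 to 41 bases and Gadd45g 27 to 22 bases before the start. The E-box was in Gadd45b and Gadd45g (6.02% of windows), and the N-box, a site bound by Hes proteins, in Gadd45g alone of the 3 (36.7% of windows). CCAAT was in all 3 promoters (33.8% of windows) and the GC box in Gadd45a and Gadd45b (32.7%). The cyclic AMP response element TGACGTCA (1.55% of windows) and the AP-1 element TGANTCA (6.75%) were in none of the 3. These are matches of letters and were not measured as sites.

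The arrays carried 62976 spots each, and 57.0% to 62.0% of the spots other than controls were well above background. Values are log2 of the signal relative to the 75th percentile of the same array. The 3 Gadd45 probes were well above background on all 11 arrays. Hepatocyte markers were high on every array, and the mean log2 level of the 9 markers ranged from 8.14 to 8.36. The Notch1 probe did not pass the threshold in NICD1 (0.22 against GFP, adjusted p = 0.939) or NICD1&2 (0.16, adjusted p = 0.810), nor did the Notch2 probe in NICD2 (0.21, adjusted p = 0.765) or NICD1&2 (-0.0016, adjusted p = 0.995). The place of these probes in the transcripts was not given in the sources used here, so whether they detect the vectors is not known. Spp1, a secreted phosphoprotein that Notch raises in liver, was higher than in GFP by 1.71 in NICD1 (adjusted p = 0.0964), 1.81 in NICD2 (adjusted p = 0.0270) and 2.23 in NICD1&2 (adjusted p = 0.0111) on the log2 scale by limma. With each of the 11 arrays left out in turn, its difference was 1.69 to 1.97 in NICD2 and 2.07 to 2.40 in NICD1&2. Its adjusted p was no longer under 0.05 in 6 cases in NICD2 (without GFP array 1 or 2, NICD1 array 1 or 3, or NICD2 array 2 or 3) and in 2 cases in NICD1&2 (without GFP array 2 or NICD1&2 array 2). The labels do not tie the arrays to mice. The study's methods state in general terms that at least 3 mice were used per group. Its figure legend gives n = 3 in GFP, NICD1 and NICD2 and n = 2 in NICD1&2. The tests measure the spread between these arrays.

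Gadd45g was highest in the NICD1&2 livers. Its log2 levels were 6.44 and 7.37 with both vectors. The GFP arrays gave 1.93, 6.37 and 4.74. The NICD1 arrays gave 3.70, 6.30 and 5.76. The NICD2 arrays gave 4.98, 5.29 and 5.37. Both NICD1&2 arrays were thus above all other 9 arrays, although NICD1&2 array 1 exceeded GFP array 2 by little (6.44 and 6.37). Of all 36055 probes tested, 7.7% had both NICD1&2 arrays above the other 9, and 24.1% had both above every GFP array. The arrays of GFP, NICD1 and NICD2 overlapped.

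**Figure D1:**
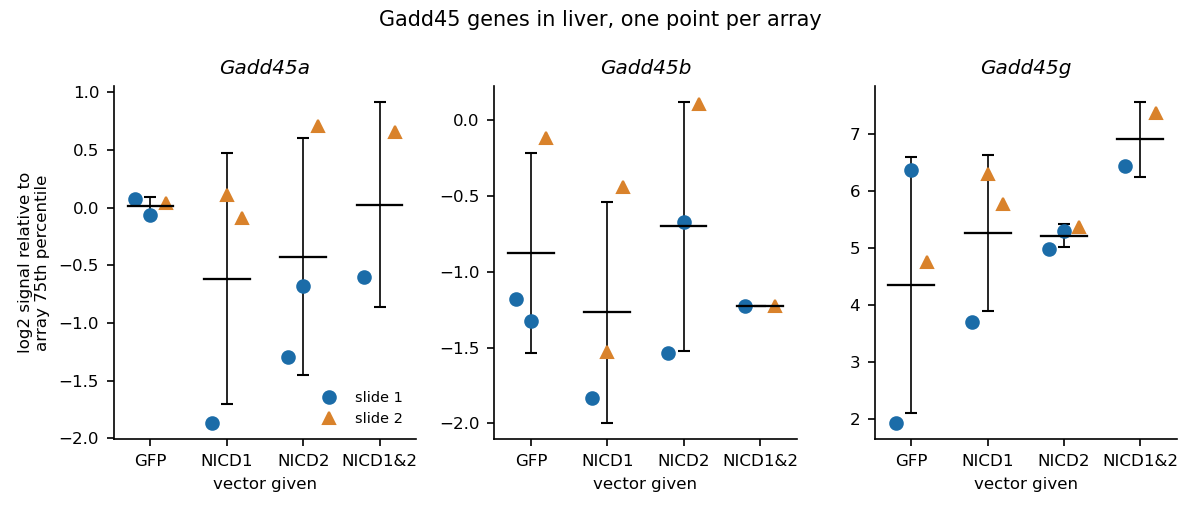
Log2 signal relative to the array's 75th percentile (vertical axis) of Gadd45a, Gadd45b and Gadd45g in the 4 vector groups (horizontal axis), with 1 point per array, circles for slide 1 and triangles for slide 2, and the mean with its SD in black. Gadd45g is highest on both NICD1&2 arrays (6.44 and 7.37), and its GFP arrays spread from 1.93 to 6.37.

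The order of the mean levels of Gadd45g was NICD1&2 (6.90 ± 0.65, SD, n = 2), NICD1 (5.26 ± 1.37, n = 3), NICD2 (5.21 ± 0.20, n = 3) and GFP (4.35 ± 2.25, n = 3). The difference from GFP was 2.56 in NICD1&2, a 5.88-fold higher level. It was 0.91 in NICD1 (1.88-fold) and 0.87 in NICD2 (1.83-fold). NICD1, NICD2 and GFP, which are neighbours in this order, differed by less than the SD of the GFP arrays. NICD1&2 exceeded NICD1 by 1.65 (3.13-fold) and NICD2 by 1.69 (3.22-fold). All probes together were shifted upwards in NICD1&2, with a median of 0.12 against GFP, and relative to this median Gadd45g was higher by 2.44.

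The low GFP array carried much of the difference from GFP. GFP array 1 had a Gadd45g signal of 703, compared with 5033 and 14403 on the other GFP arrays and 23117 on NICD1&2 array 2, where these values are intensities before normalization. Without GFP array 1, NICD1 and NICD2 lay below GFP (-0.30 and -0.34), whereas NICD1&2 lay above it (1.35). The sign of the NICD1&2 value could not change, because both its arrays lay above all other arrays. Without GFP array 2, the highest of the group, the differences were 1.92, 1.88 and 3.57. GFP array 1 was also the array on which dim probes were lowest. The 10th percentile of all tested probes was -5.16 there and -4.80 to -4.17 on the other 10 arrays. With quantile normalization, which gives all arrays the same distribution, the differences of Gadd45g from GFP were 0.94, 0.85 and 2.37. Within slide 1 Gadd45g was higher in NICD1&2 than in GFP by 2.29 and within slide 2 by 2.62, whereas the same values were 0.99 and 0.62 for NICD2 and -0.44 and 1.29 for NICD1.

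Between the 2 single vectors the mean of Gadd45g in NICD1 exceeded that in NICD2 by 0.041 on the log2 scale. It was -0.48 without NICD1 array 2 and 0.82 without NICD1 array 1, so its sign rested on single arrays. The arrays of NICD2 were close together, within 0.38, and those of NICD1 spanned 2.6.

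Gadd45a was level in the GFP livers and varied in all groups given a Notch vector. Its log2 levels were 0.073, -0.065 and 0.045 on the GFP arrays. The NICD1 arrays gave -1.87, 0.11 and -0.087. The NICD2 arrays gave -1.30, -0.68 and 0.71. The NICD1&2 arrays gave -0.60 and 0.66. In each Notch vector group Gadd45a thus lay both above and below some GFP array, and no 2 groups were separated. The SD between GFP arrays was 0.073, whereas it was 1.09 in NICD1, 1.03 in NICD2 and 0.89 in NICD1&2.

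By slide, Gadd45a was -1.87 to 0.073 on the 6 arrays of slide 1 and -0.087 to 0.71 on the 5 arrays of slide 2. The 4 lowest arrays, NICD1 array 1, NICD2 arrays 1 and 2 and NICD1&2 array 1, were all on slide 1. On this slide the 2 GFP arrays were the highest, and NICD1, NICD2 and NICD1&2 were below GFP by -1.87, -0.99 and -0.61. On slide 2, the differences from the single GFP array were -0.033, 0.66 and 0.61. The direction of NICD2 and NICD1&2 against GFP was therefore opposite on the 2 slides. These values come from 1 or 2 arrays each and were not tested.

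Over all arrays Gadd45a differed from GFP by -0.63 in NICD1 (95% interval -2.06 to 0.80, adjusted p = 0.927), by -0.44 in NICD2 (-1.87 to 0.99, adjusted p = 0.964) and by 0.0093 in NICD1&2 (-1.59 to 1.61, adjusted p = 0.996) in limma. None of these passed the threshold, as was the case for nearly all probes, since 0.00832% passed in NICD1, 0.0527% in NICD2 and 0.0998% in NICD1&2. The exact permutation p-values (two-sided) were 0.6, 0.6 and 1.0, and the smallest possible was 0.1 with 3 arrays and 0.2 with 2. Relative to the median of all probes, the NICD1&2 value was -0.11. Without NICD1 array 1 the NICD1 difference was -0.0061, and without NICD2 array 1 the NICD2 difference was -0.0052, so both rested on 1 array. Without NICD1&2 array 1 or 2 the NICD1&2 difference was 0.64 or -0.62.

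Gadd45b overlapped between all groups, and its means were lowest in NICD1 (-1.27) and NICD1&2 (-1.22), which differed by 0.044. Its log2 levels were -1.18, -1.33 and -0.12 on the GFP arrays. The NICD1 arrays gave -1.83, -1.53 and -0.44. The NICD2 arrays gave -1.53, -0.67 and 0.11. The NICD1&2 arrays gave -1.22 on both. The single highest array of GFP, NICD1 and NICD2 was in each case on slide 2. The 2 NICD1&2 arrays, although on different slides, differed by 0.0028, and 0.571% of probes had a lower SD in that group.

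In limma Gadd45b differed from GFP by -0.39 in NICD1 (95% interval -1.52 to 0.74, adjusted p = 0.939), by 0.18 in NICD2 (-0.96 to 1.31, adjusted p = 0.988) and by -0.35 in NICD1&2 (-1.61 to 0.92, adjusted p = 0.761). The exact permutation p-values (two-sided) were 0.5, 0.8 and 0.8. Without GFP array 3, the highest of the group, the NICD1 and NICD1&2 differences were -0.014 and 0.030. The NICD1 difference was -0.81 without NICD1 array 3 and -0.68 with the slide as a block. Within slides 1 and 2 it was -0.58 and -0.87. Without NICD2 array 3 the NICD2 difference was -0.23. The direction of the change of Gadd45b against GFP thus depended on single arrays in NICD2 and NICD1&2.

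Between the Notch vectors, Gadd45a and Gadd45b showed no detectable difference. NICD1 minus NICD2 was -0.19 for Gadd45a and -0.57 for Gadd45b (adjusted p = 1.0 for both, limma), where 0.00277% of all probes passed. NICD1&2 minus NICD1 was 0.64 for Gadd45a (adjusted p = 0.720) and 0.044 for Gadd45b (adjusted p = 0.978), where 0.0139% of all probes passed. The value of Gadd45a was 0.013 without NICD1&2 array 2 and 1.27 without NICD1&2 array 1. NICD1&2 minus NICD2 was 0.45 for Gadd45a (adjusted p = 0.816) and -0.52 for Gadd45b (adjusted p = 0.726), where 0.00277% passed. The value of Gadd45b was -0.94 without NICD2 array 1, -0.12 without NICD2 array 3 and -0.13 with the replicate number as a block. In NICD1 minus NICD2 it was -0.99 and -0.17 without these same arrays. The interaction term, which asks whether both vectors together differ from the sum of the single effects, was 1.08 for Gadd45a (95% interval -1.06 to 3.23, adjusted p = 0.788) and -0.13 for Gadd45b (-1.83 to 1.57, adjusted p = 0.975). The interaction of Gadd45a was 0.46 without NICD1&2 array 2 and 1.71 without NICD1&2 array 1. For this term 0% of the probes passed, that is 0 of 36055, whereas 2534 had an unadjusted p under 0.05. For Gadd45g the same sum was 0.78 as a description, and it was -0.23 without GFP array 2 and 1.99 without GFP array 1.

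**Figure D2:**
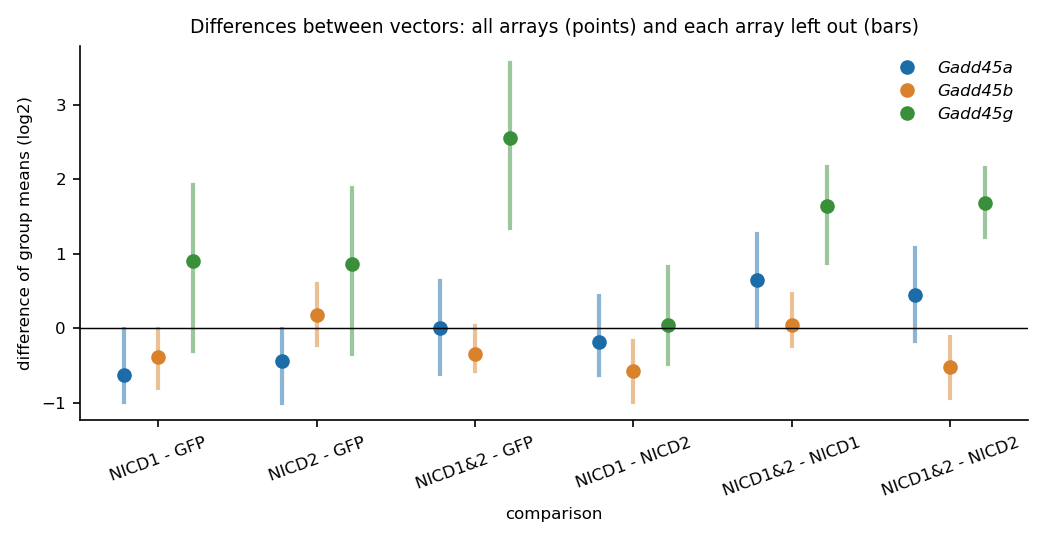
Difference of group means in log2 (vertical axis) of the 3 genes in 6 comparisons (horizontal axis); points are the values over all arrays and bars run from the lowest to the highest value with 1 array left out. The bars of Gadd45g in the 3 comparisons of NICD1&2 have their lowest values at 1.35, 0.87 and 1.23. They cannot reach 0, since both NICD1&2 arrays lie above all other arrays, so they add no support. Those of Gadd45g in NICD1 and NICD2 against GFP reach -0.30 and -0.34.

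The altered-gene definition of the study, an unadjusted P under 0.15 with a change over 1.8-fold, was met by 6.23% of probes in NICD1&2 against GFP. Gadd45g was not judged by this definition, because it was chosen by its higher level with the Notch vectors. The shares of probes meeting the definition were 2.22% in NICD1 and 1.98% in NICD2 against GFP, and 1.26% in NICD1 against NICD2. Gadd45a and Gadd45b met it in none of these 4 comparisons. With the slide as a block in the limma model, Gadd45a met it in NICD1 against GFP (-1.04, unadjusted p = 0.028, adjusted p = 0.909) and Gadd45b in NICD1 against NICD2 (-0.85, unadjusted p = 0.052, adjusted p = 0.996). Gadd45b also met it in NICD1 against NICD2 without NICD1 array 3 (-0.98) or NICD2 array 1 (-0.99), and Gadd45a in NICD2 against GFP without NICD2 array 3 (-1.01).

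All 3 genes varied more between arrays of the same group than most probes did. The SD within groups, pooled over the 4 groups, was 1.43 for Gadd45g, 0.87 for Gadd45a and 0.68 for Gadd45b, with a median of 0.22 over all tested probes. A lower SD was seen in 99.7% of probes compared with Gadd45g, 95.1% compared with Gadd45a and 90.2% compared with Gadd45b. Over the GFP arrays alone, the SD of Gadd45g (2.25) was above that of 99.96% of probes, whereas the SD of Gadd45a (0.073) was above that of 20.4%. From the lowest to the highest of the 11 arrays, Gadd45g spanned 43.4-fold, Gadd45a 5.95-fold and Gadd45b 3.83-fold.

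**Figure D3:**
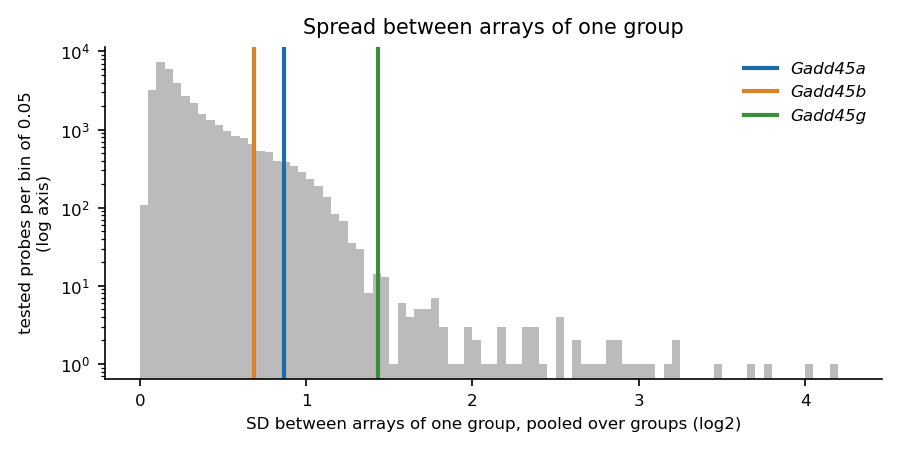
Number of tested probes (vertical axis, logarithmic) by their SD between arrays of one group, pooled over the 4 groups, in log2 (horizontal axis, bins of 0.05), with the 3 genes as coloured lines. Gadd45b (0.68), Gadd45a (0.87) and Gadd45g (1.43) lie to the right of the median probe (0.22).

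The 3 genes did not follow one another closely over the 11 arrays, which share their groups and slides. Pearson's r was 0.56 for Gadd45a and Gadd45b (Spearman's rho 0.51), and it was 0.21 without the 2 arrays farthest from the median of Gadd45a. It was 0.33 for Gadd45a and Gadd45g and 0.038 for Gadd45b and Gadd45g. Among 16629 other genes ordered by r with Gadd45a, Gadd45b stood at place 1226 and Gadd45g at place 4395.

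The genes most like Gadd45a over the 11 arrays were Endov (r = 0.94), Txnip (r = 0.93), Kif19a (r = 0.92), Dusp6 (r = 0.90) and Zfp653 (r = 0.90). Txnip, which encodes the thioredoxin-interacting protein, ranged from 4.13 on NICD1 array 1 to 6.54 on NICD2 array 3, the same arrays as the lowest and highest of Gadd45a. Dusp6, a phosphatase of ERK, ranged from 2.96 on NICD2 array 1 to 5.31 on GFP array 3. Endov, Kif19a and Zfp653 spanned 0.48, 0.74 and 0.58, far less than the 2.57 of Gadd45a.

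The genes most like Gadd45b were Macf1 (r = 0.90), Zfp612 (r = 0.89), Carmn (r = 0.88), Rgs1 (r = 0.87) and Oas2 (r = 0.86). Rgs1, a regulator of G protein signaling in leukocytes, was highest on GFP array 3 (-0.98) and NICD2 array 3 (-1.07), the 2 arrays on which Gadd45b was highest. Oas2, an interferon-induced gene, was likewise highest on GFP array 3 (-0.35). The r of Rgs1 fell to 0.63 without these 2 arrays, and that of Oas2 was 0.84.

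The genes most like Gadd45g were Hdgfl1 (r = 0.96), Olfr836 (r = 0.95), Nt5dc2 (r = 0.95), Cacng8 (r = 0.94) and Kap (r = 0.94). All 5 were dim, with the highest log2 level at -1.72, and all 5 were lowest on GFP array 1, as Gadd45g was. Hdgfl1 and Cacng8 were well above background on 10 of the 11 arrays and Kap on 8. Without GFP array 1 and NICD1&2 array 2, the r of the 5 genes ranged from 0.84 (Cacng8) to 0.88 (Hdgfl1). Ordered by Spearman's rho instead, 0 of the first 5 genes were the same for Gadd45a, 1 for Gadd45b and 0 for Gadd45g, so these orders depended on the measure.

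**Figure D4:**
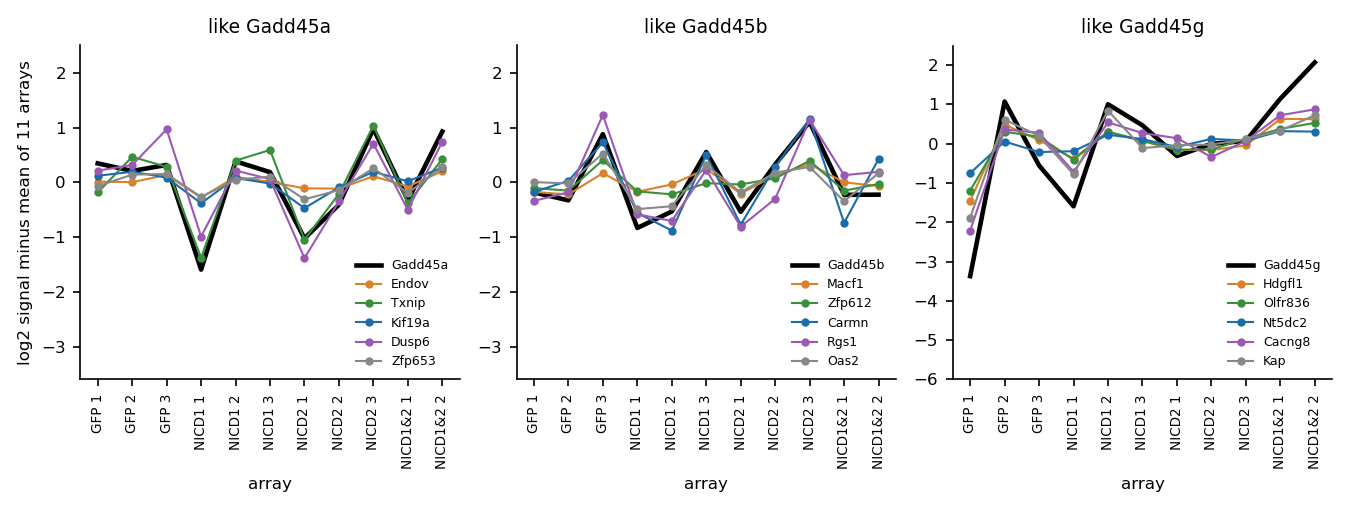
Log2 signal minus its mean over the 11 arrays (vertical axis) by array (horizontal axis) for each Gadd45 gene in black and the 5 genes with the highest Pearson's r to it in colour. Gadd45a and Txnip share their lowest array, NICD1 array 1, and Gadd45g and its 5 genes share theirs, GFP array 1.

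Genes that Gadd45 proteins work with were counted by the same definition. Against GFP, 2.22% of all probes met it in NICD1, 1.98% in NICD2 and 6.23% in NICD1&2. Of the p38 and JNK cascade, 15 of 16 genes were tested, and 0 met the definition in NICD1, NICD2 or NICD1&2 against GFP, although 1 did in NICD2 without NICD2 array 3 and 1 in NICD1&2 without NICD1&2 array 1. Their median difference in NICD1&2 was 0.068, beside 0.12 for all probes, and it was 0.18 without NICD1&2 array 1 and -0.076 without NICD1&2 array 2. Among 4 tested cell cycle partners, Cdkn1a, an inhibitor of cyclin-dependent kinases, met the definition in NICD2 (1.20, adjusted p = 0.565) and NICD1&2 (1.84, adjusted p = 0.167), and Cdk1, the kinase of mitotic entry, met it in NICD1 (0.91, adjusted p = 0.781), though not without GFP array 1 or NICD1 array 3. The arrays of these 2 genes did not overlap with GFP in these comparisons, and neither did those of 12.4% of all probes in NICD1, 13.4% in NICD2 and 34.5% in NICD1&2. The median of the 4 in NICD1&2 was 0.23, and 0.46 without NICD1&2 array 2. Of 7 tested genes of DNA demethylation, a process in which Gadd45 proteins have been implicated, 0 met the definition in any comparison with GFP (median in NICD1&2 0.12, and 0.19 without GFP array 1, 0.016 without NICD1&2 array 1 and 0.064 without NICD1&2 array 2).

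Of 18 known inducers of Gadd45 genes, all tested, 0 met the definition in NICD1 or NICD2 and 1 in NICD1&2. Of all probes, 2.22% met it in NICD1, 1.98% in NICD2 and 6.23% in NICD1&2, and nothing is read from these counts. The median in NICD1&2 was 0.090 (0.19 without NICD1&2 array 1 and -0.0047 without NICD1&2 array 2), beside 0.12 for all probes. The inducer that met the definition was Trp53, which encodes p53 and was lower in NICD1&2 by -0.87 (adjusted p = 0.260). Its 2 NICD1&2 arrays differed, at 0.048 and -1.07, with all 3 GFP arrays between 0.35 and 0.37, and 0 inducers met the definition without NICD1&2 array 2. The count was 2 without GFP array 2 or NICD1&2 array 1, and in NICD2 it was 1 without GFP array 1. Of the 5 other genes named for growth arrest or DNA damage, Ddit4, an inhibitor of mTORC1 signaling, was higher in NICD1&2 by 1.23 (adjusted p = 0.377) and its arrays did not overlap with GFP, as was the case for 34.5% of all probes. Without GFP array 2 or NICD1&2 array 1, 0 of the 5 met the definition in NICD1&2. The median of the 5 was 0.22, and it was 0.61 without NICD1&2 array 1 and 0.16 without NICD1&2 array 2. In NICD2 Ddit4 also met the definition (1.17, adjusted p = 0.771) with arrays that overlapped with GFP, and 0 of the 5 met it without GFP array 2 or NICD2 array 1 or 2.

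The p53 target genes were set beside Gadd45a, itself such a target and not counted in the list. In NICD1&2 against GFP, 17 of 18 had a positive difference, with a median of 0.48 beside 0.12 for all probes, and 4 met the definition, as 6.23% of all probes did. These were Cdkn1a (1.84), Eda2r (1.36, adjusted p = 0.0522), Phlda3 (1.32, adjusted p = 0.213) and Tnfrsf10b (0.97, adjusted p = 0.152), all 4 without overlap of the arrays, as 34.5% of all probes. Without a single array the count was between 3 (without GFP array 1 or NICD1&2 array 2) and 7 (without GFP array 3). Gadd45a differed by 0.0093 in the same comparison. In NICD2 against GFP, 1 of 18 met it (3 without GFP array 3 and 2 without NICD2 array 2), beside 1.98% of all probes. Positive were 14, with a median of 0.21 (0.12 without GFP array 1 and 0.32 without GFP array 3). The median of all probes was 0.020, and Gadd45a differed by -0.44. In NICD1 against GFP, 0 met it (1 without NICD1 array 1 or 2), beside 2.22% of all probes, and 2 were positive. The median of the list was -0.23, beside 0.015 for all probes and -0.63 for Gadd45a. In NICD1 against NICD2, Cdkn1a, Eda2r, Phlda3 and Tnfrsf10b met it with lower levels in NICD1 (-1.69, -0.87, -1.52 and -1.30) and no overlap. Of all probes, 1.26% met it and 9.31% had no overlap. The median of the list was -0.47, and Gadd45a differed by -0.19. Whether Gadd45a departs from the list was not tested.

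Other groups of genes were set beside Gadd45g in NICD1&2 against GFP, where 6.23% of all probes met the definition and the median of all probes was 0.12. Of 15 immediate early genes, which like the Gadd45 genes are induced rapidly, 0 met the definition (median 0.15), and 3 did without NICD1&2 array 1. The median turned with single arrays, from -0.71 without NICD1&2 array 2 and -0.41 without GFP array 1 to 0.92 without NICD1&2 array 1. Their mean log2 level varied widely between arrays of one group, from 0.43 to 1.79 in GFP and from -0.49 to 1.86 in NICD1. Of 14 circadian clock genes 1 met it, Ciart, a repressor of the clock (0.89, adjusted p = 0.152), and the median was 0.23 (0.13 without GFP array 1); without GFP array 1 or 2, 0 met it, and without GFP array 3, 2 did. Of 8 tested Notch targets 4 met it, with a median of 0.94. These were Spp1 (above), Hes1, a repressor of transcription (1.36, adjusted p = 0.280), Sox9, a factor of bile duct cells (1.16, adjusted p = 0.197), and Nrarp, a feedback inhibitor of Notch. Nrarp was not well above background on any GFP array and was at least 7.07-fold higher in NICD1&2 (adjusted p = 0.0719).

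**Figure D5:**
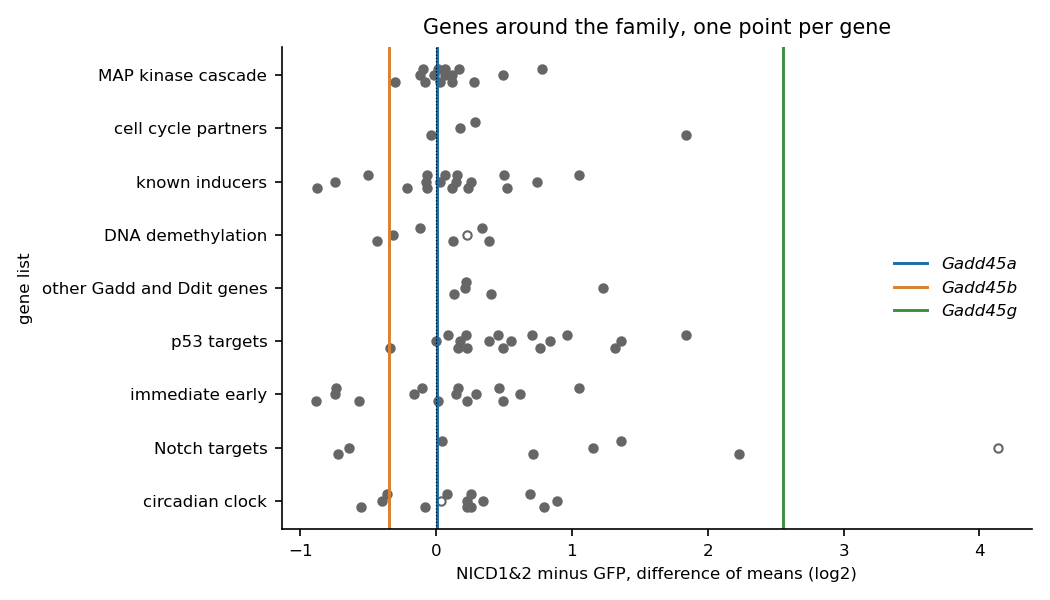
Difference of NICD1&2 minus GFP in log2 (horizontal axis) for each gene of 9 lists (vertical axis), with the 3 Gadd45 genes as lines; open points are genes not well above background on any array of one of the 2 groups, whose size is not a fold. Gadd45g (2.56) lies above all filled points, and the p53 targets lie mostly to the right of Gadd45a (0.0093). The place of Gadd45g rests on GFP array 1. Without it Gadd45g was 1.35, whereas Spp1, a filled point, was at least 2.07 with any array left out.

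Markers of other cells of the liver were followed beside these values. In NICD1&2 against GFP, 6 of 6 bile duct markers were positive (median 0.69; 0.38 without GFP array 1 and 0.91 without GFP array 2), and their summed signal was 6.97 to 9.98 times the array's 75th percentile in GFP and 32.6 to 40.3 in NICD1&2. Most of this sum was Spp1, whose log2 level was 2.64 to 3.20 in GFP and 4.96 and 5.29 in NICD1&2. Spp1 and Sox9, which are also among the Notch targets, belong to this list. The medians of the marker lists of hepatocytes (9 genes, 0.13), myeloid cells (8 genes, 0.051), lymphocytes (7 genes, -0.026), endothelial cells (5 genes, -0.095), stellate cells (5 genes, 0.063) and red blood cells (4 genes, 0.28) stood beside 0.12 for all probes. With single arrays left out, the median was 0.047 (without NICD1&2 array 1) to 0.17 for hepatocytes, -0.086 (without GFP array 1) to 0.074 (without GFP array 3) for lymphocytes and -0.14 to -0.043 (without GFP array 1) for endothelial cells. The red blood cell median was 0.66 without NICD1&2 array 1 and -0.047 without NICD1&2 array 2, on which Gadd45g was also highest. The stellate cell median was 0.37 and -0.16 without the same arrays, and the myeloid median was 0.18 without GFP array 1 and -0.088 without GFP array 2. Itgam, a myeloid integrin, was lower in NICD1&2 (-0.98, adjusted p = 0.209), and Lyve1, a receptor of sinusoidal endothelium, was higher in NICD1&2 (0.93, adjusted p = 0.162), both meeting the definition (6.23% of all probes) with no overlap with GFP (34.5% of all probes). No myeloid marker met it without GFP array 1 or NICD1&2 array 2, and no endothelial marker without GFP array 2 or NICD1&2 array 2. The part of bile duct cells in the Gadd45g values was not tested.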

How the data were processed

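RNA of 11 mouse liver samples was hybridized by the authors to one-colour Agilent arrays, and Feature Extraction 11.5.1.1 gave, per the file headers, processed signal intensities corrected for background. In the deposited table the log2 values are relative to the 75th percentile of the same array, and at least 99.912% of probes agreed within 0.01 with this calculation from the deposited intensities. Probes were named through RefSeq accessions (32989 of 56605). Probes well above background on at least 2 arrays (36055) were fitted with group means over all 11 arrays in limma 3.58.1 (R 4.3.3), with Benjamini-Hochberg adjustment and a threshold of 0.05. Of several probes of a gene, the one with the highest mean was used. Single values were also compared by exact permutation (SciPy 1.17.1). Named were the 3 genes, the 5 genes with the highest Pearson's r to each, and, in the comparisons described, list genes that passed the threshold or met the study's definition with no overlap of arrays. Notch1 and Notch2 were named as the genes of the vectors, and Ddit4 in NICD2, outside this rule, after its values were seen. The limma fit was tested on simulated data, and the other steps were not. The members and lists were chosen with earlier results of these data known. Slides were read from the scanner files. Alternatives changed the normalization, background, filter, model and arrays. The labels and methods name different RNA kits, and the methods name a smaller array than the files hold. The number of arrays limits the precision. The authors' other experiments were not analysed here.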

Additional observations from a re-analysis of the deposited data

How the results depend on the processing

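Of 308 tested values of Gadd45a and Gadd45b under the alternatives, 0 passed an adjusted p under 0.05 in limma, and the lowest adjusted p was 0.366. The direction of a difference changed 22 times. With another normalization, NICD1&2 minus GFP of Gadd45a was -0.0076 (quantile) and -0.068 (75th percentile taken over the probes that all arrays detected), and NICD1&2 minus NICD1 of Gadd45b was -0.029 with that percentile and -0.0016 with normexp background correction and quantile normalization. With the slide as a block, NICD1 minus GFP of Gadd45a was -1.04 instead of -0.63, NICD1&2 minus GFP of Gadd45a was -0.19, NICD1 minus NICD2 of Gadd45g was -0.30, and the interaction of Gadd45b was 0.010. Replicate numbers did not pair the arrays, since same-numbered arrays had correlations of -0.41 to 0.17, 6 of 15 over 0.1. With the replicate block, NICD1&2 minus GFP of Gadd45b was 0.049 and its interaction 0.27.

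Within slides, NICD1 minus GFP of Gadd45a was -1.87 on slide 1, and NICD2 minus GFP was 0.66 on slide 2, as given above. Within slide 2, Gadd45b in NICD1&2 minus GFP was -1.11 and in NICD1&2 minus NICD2 -1.33. The interaction of Gadd45a was 2.26 on slide 1 and -0.018 on slide 2, and NICD1 minus NICD2 of Gadd45g was -1.44 on slide 1. With each array left out in turn, the range for Gadd45a was -0.62 to 0.64 in NICD1&2 minus GFP, -0.63 to 0.44 in NICD1 minus NICD2 and -0.18 to 1.08 in NICD1&2 minus NICD2. For Gadd45b it was -0.23 to 0.59 in NICD2 minus GFP, -0.57 to 0.030 in NICD1&2 minus GFP, -0.24 to 0.46 in NICD1&2 minus NICD1 and -0.55 to 0.28 in the interaction. For Gadd45g it was -0.48 to 0.82 in NICD1 minus NICD2 and -0.23 to 1.99 in the interaction. The cause of these changes was not tested.

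NICD1&2 minus GFP of Gadd45g was 2.09 to 2.73 under the other settings over all arrays. The counts of probes over the whole array moved more. In NICD1, NICD2 and NICD1&2 against GFP, 3, 19 and 36 probes passed the adjusted threshold, with ranges of 0 to 7, 5 to 71 and 0 to 345, and 802, 715 and 2247 met the study's definition, with ranges of 72 to 2060, 98 to 1796 and 173 to 5082. In NICD1 against NICD2, 1 passed (0 to 5) and 455 met the definition (71 to 1563). In NICD1&2 against NICD1, against NICD2 and in the interaction, 5, 1 and 0 passed (0 to 204, 0 to 124 and 0 to 12). Each gene had 1 probe, so no other probe of it could be tried. With 2 or 3 arrays a group, only large differences can be detected, and a signal well above background on all arrays does not narrow the spread of the 3 genes.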
